A study of Homo sapiens with 8 samples.

Results

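The NRF2 pathway antioxidant genes are 9 genes chosen by symbol: the regulators NFE2L2 and KEAP1, the heme and quinone enzymes HMOX1 and NQO1, the glutathione synthesis subunits GCLC and GCLM, and TXNRD1, TXN and SRXN1 of the thioredoxin and sulfiredoxin systems. All 9 were found among the 23228 genes listed for each library, and all 9 passed the filter on low counts, with 13915 genes tested in all. Their transcripts were measured by RNA sequencing of cells labelled U87 MG, the name of a long-established cell line from a human glioblastoma. The markers given below go against this label. The cells were kept in DMEM with 10% FBS, in 4 groups of 2 libraries. The groups are knockout cells given back the ERβ5 isoform (ERβ5), knockout cells given back the ERβ1 isoform (ERβ1), cells in which estrogen receptor beta was removed with CRISPR/Cas9 (ERβ-KO), and unmodified U87 cells (control). The ERβ5 and ERβ1 groups thus both carry the knockout, and no treatment separates the groups. The sources used here give neither how the isoforms were delivered nor whether a group was 1 clone.

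NRF2, the protein of NFE2L2, is a transcription factor that is kept low because KEAP1 presents it to a ubiquitin ligase for breakdown. Oxidants and electrophiles modify cysteines of KEAP1, NRF2 then accumulates in the nucleus, pairs with small MAF proteins and binds antioxidant response elements of genes that make glutathione, recycle thioredoxin, reduce quinones and degrade heme. Because this control acts on the protein, the NFE2L2 transcript is not a measure of NRF2 activity. In gliomas, as in other tumours, these genes are known for protecting cells from oxidative stress and from some drugs.

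Counted gene reads ran from 26760897 to 48076414 per library. Levels are in CPM, reads per 1e+06 gene reads after scaling by TMM factors. The targeted gene, ESR2, had 7 and 10 reads in the libraries labelled ERβ5, 6 and 18 in those labelled ERβ1, 23 and 21 in those labelled ERβ-KO and 25 and 20 in control. Whether the constructs would be counted as ESR2 is not given in these sources, so low reads in the libraries labelled ERβ5 and ERβ1 do not show that the isoforms were absent. The libraries labelled ERβ5 and ERβ1 held the fewest ESR2 reads, those labelled ERβ-KO had about as many as control, and no comparison of ESR2 passed the test (edgeR adjusted p = 0.0761 to 0.932). ESR2 read counts thus do not separate the groups as named, and each direction below is one between libraries labelled so. Counts per gene do not show whether the sequence of ESR2 was edited, so they do not test the knockout. In bulk libraries, fewer cells expressing a gene and less RNA per cell cannot be told apart. The line's label was set against its markers. All 10 luminal epithelial markers reached 10 CPM in every library, with KRT8 at 2057 to 4453 CPM, while 4 of 14 glioma and mesenchymal markers did (SOX2, FN1, CD44 and LGALS1). S100B, OLIG2, POSTN and THY1 were at 0 in all 8 libraries, GFAP was at most 0.136 CPM and VIM at most 12.4 CPM, so the markers go against the glioblastoma label. The summed epithelial markers were 16226 and 17317 CPM in the libraries labelled ERβ5, 17400 and 18390 CPM in ERβ1, 12510 and 12878 CPM in ERβ-KO and 14428 and 15193 CPM in control. Their part in the results was not tested. No source states that libraries of 1 group are from different cultures, and p-values then measure only the spread between these libraries, which may be technical.

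Sequences before the starts of these genes are shown first, because NRF2 with its MAF partner recognises a short element there. RefSeq windows from 250 bases before to 50 bases after a start (build GRCh38.p14) were matched by symbol to 8 of the 9 genes, in 11 windows; HMOX1 was not matched. The letters searched were TGACNNNGC, the core of the antioxidant response element, and its variant TGAGNNNGC, on both strands, so that the other strand reads GCNNNGTCA or GCNNNCTCA. The first letters of these motifs also occur in AP-1 sites. TGACNNNGC stood in 4 of the 11 windows, of 3 genes, and in 13.3% of all 35116 windows of the same length. TGAGNNNGC stood in 5 of the 11, of 5 genes, and in 18.3% of all windows. The windows with TGACNNNGC are printed 5′ to 3′ on the strand of the gene, with matches to either motif in capitals.
GCLM, chr1:93909381-93909680, minus strand: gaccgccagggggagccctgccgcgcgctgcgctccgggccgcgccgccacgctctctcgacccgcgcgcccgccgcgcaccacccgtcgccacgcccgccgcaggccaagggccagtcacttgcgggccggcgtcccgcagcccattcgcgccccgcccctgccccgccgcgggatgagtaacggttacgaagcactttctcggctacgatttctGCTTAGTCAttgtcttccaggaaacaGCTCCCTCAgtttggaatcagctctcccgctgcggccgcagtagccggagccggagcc
TXNRD1 upstream start, chr12:104215529-104215828, plus strand: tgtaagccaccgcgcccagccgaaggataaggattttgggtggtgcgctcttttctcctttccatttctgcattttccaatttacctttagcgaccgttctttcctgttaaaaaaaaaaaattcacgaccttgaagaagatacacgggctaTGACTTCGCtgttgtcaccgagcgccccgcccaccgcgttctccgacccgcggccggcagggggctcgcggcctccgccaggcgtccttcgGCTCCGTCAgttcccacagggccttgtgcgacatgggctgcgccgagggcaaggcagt
TXNRD1 downstream start, chr12:104286782-104287081, plus strand: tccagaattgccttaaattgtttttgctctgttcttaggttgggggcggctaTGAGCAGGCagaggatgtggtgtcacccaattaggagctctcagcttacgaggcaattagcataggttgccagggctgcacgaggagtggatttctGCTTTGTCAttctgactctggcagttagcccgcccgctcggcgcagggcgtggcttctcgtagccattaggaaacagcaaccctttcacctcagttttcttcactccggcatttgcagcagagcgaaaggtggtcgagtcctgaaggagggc
KEAP1 downstream start, chr19:10502722-10503021, minus strand: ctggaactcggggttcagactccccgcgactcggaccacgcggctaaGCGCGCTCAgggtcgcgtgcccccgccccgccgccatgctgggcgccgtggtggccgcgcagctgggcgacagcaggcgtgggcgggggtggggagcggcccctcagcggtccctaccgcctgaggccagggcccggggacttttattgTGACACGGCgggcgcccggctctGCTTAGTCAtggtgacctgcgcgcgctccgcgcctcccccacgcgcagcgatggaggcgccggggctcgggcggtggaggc
GCLM and KEAP1 held the same 9 letters, GCTTAGTCA, at bases -34 to -26 and -31 to -23, counted from the start as base 1. In TXNRD1 the downstream start had GCTTTGTCA at -102 to -94. NFE2L2 and NQO1 held TGAGNNNGC but not TGACNNNGC in their windows, and the windows of GCLC, TXN and SRXN1 held neither. A match is a description of letters, and the windows are too short to include distant elements.

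Compared per kilobase of the canonical transcript, NQO1, which reduces quinones with NADH or NADPH, had the highest level of the 9 genes, with a median over the 8 libraries of 517 CPM per kilobase. TXN, the small disulfide reductase thioredoxin, followed at 119 CPM per kilobase. TXNRD1, SRXN1, KEAP1, NFE2L2, HMOX1 and GCLC had medians of 50.5, 41.5, 41.4, 39.6, 33.8 and 27.9 CPM per kilobase. GCLM was lowest at 3.87, below GCLC, the catalytic subunit it assists. HMOX1 covered the widest range on the log scale, 17.9 to 216 CPM per kilobase, so its place in this order depends on the group, while NQO1 was above every other gene in each library.

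**Figure D1:**
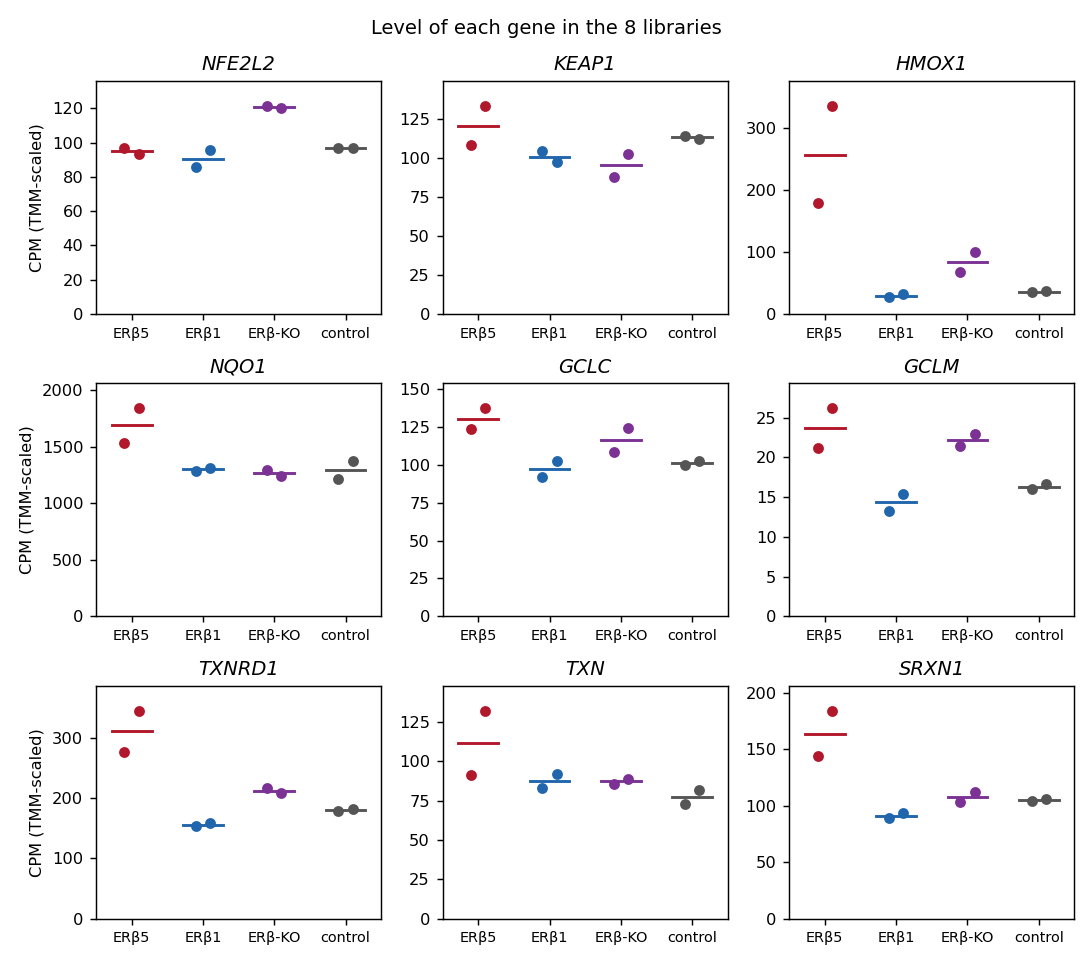
Level of each of the 9 genes in CPM (vertical axes, linear from 0) in the libraries labelled ERβ5, ERβ1, ERβ-KO and control, with 2 points per group and a bar at their mean. HMOX1 reached 178 and 335 CPM in the libraries labelled ERβ5 and at most 99.6 CPM elsewhere, and NFE2L2 was highest in those labelled ERβ-KO.

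The isoform comparison asks whether cells given ERβ5 differ from cells given ERβ1, which is the question of the series title. Of the 9 genes, 5 rose and 0 fell, where 3.49% of all genes tested rose, 1.18% fell and 4.66% did either. The median log2 fold change was 0.43 over the 9 genes and -0.0055 over all genes tested. The genes that rose were HMOX1, TXNRD1, SRXN1, GCLM and GCLC, while NQO1, TXN, NFE2L2 and KEAP1 did not pass. Each p-value comes from the quasi-likelihood test of edgeR, adjusted over all genes by Benjamini-Hochberg, with a call at an adjusted p under 0.05.

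HMOX1, on chromosome 22 at 35776354 to 35790207 (GRCh37, plus strand), encodes heme oxygenase-1, which splits heme into biliverdin, iron and carbon monoxide. It had 178 and 335 CPM in the libraries labelled ERβ5, against 27.8 and 31.5 CPM in those labelled ERβ1, a log2 fold change of 3.11 ± 0.29 (SE, edgeR adjusted p = 0.00057). The groups did not overlap, and the ERβ5 libraries lay far apart from each other. TXNRD1, on chromosome 12 at 104609557 to 104744085 (plus strand), encodes the selenoenzyme that reduces thioredoxin with NADPH. It had 276 and 344 CPM in the libraries labelled ERβ5, against 153 and 158 CPM in those labelled ERβ1 (log2 fold change 1.00 ± 0.11, edgeR adjusted p = 0.00057). Both ERβ5 libraries were the highest of all 8 for this gene. SRXN1, on chromosome 20 at 627259 to 633844 (minus strand), encodes sulfiredoxin, which repairs overoxidised peroxiredoxins. It had 144 and 184 CPM in the libraries labelled ERβ5, against 88.7 and 93.6 CPM in those labelled ERβ1 (0.85 ± 0.12, edgeR adjusted p = 0.00208).

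The glutathione synthesis subunits rose by less. GCLM, the modifier subunit of glutamate-cysteine ligase on chromosome 1 at 94350755 to 94375012 (minus strand), had 21.2 and 26.2 CPM in the libraries labelled ERβ5, against 13.3 and 15.4 CPM in those labelled ERβ1 (log2 fold change 0.71 ± 0.14, edgeR adjusted p = 0.013). GCLC, the catalytic subunit on chromosome 6 at 53362139 to 53481768 (minus strand), had 124 and 137 CPM, against 91.9 and 102 CPM (0.43 ± 0.11, edgeR adjusted p = 0.0457). For both subunits the groups did not overlap, nor did they for NQO1 and KEAP1, which did not pass. NQO1 (chromosome 16, 69740899 to 69760571, minus strand) had 1539 and 1841 CPM in the libraries labelled ERβ5, against 1291 and 1312 CPM in those labelled ERβ1, a difference of 0.38 ± 0.11 that did not pass (edgeR adjusted p = 0.091). TXN (chromosome 9, 113006090 to 113018787, minus strand) had 91.7 and 132 CPM, against 83.2 and 92 CPM, so the groups overlapped (0.35 ± 0.15, edgeR adjusted p = 0.236). GCLM lost its call without ERβ1 1, ERβ1 2 or ERβ5 2 (edgeR adjusted p = 0.0887, 0.0503 and 0.098), and GCLC lost it without each of those libraries (0.168, 0.0922 and 0.256), without control 1 or control 2 (0.0955 and 0.096) and in a fit of these groups only (0.108). NQO1 passed without ERβ5 1 (0.0146), with no filter on low counts (0.0163), in DESeq2 (0.0304) and with each library's GC and length trend removed (0.0366), and TXN passed without ERβ5 1 (0.00649, log2 fold change 0.59), while without ERβ5 2 its difference was 0.065.

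Among the regulators, NFE2L2 (chromosome 2, 178083395 to 178257484, minus strand) had 97 and 93.4 CPM in the libraries labelled ERβ5, against 85.4 and 95.4 CPM in those labelled ERβ1. The groups overlapped, with a log2 fold change of 0.07 ± 0.10 (edgeR adjusted p = 0.742). KEAP1 (chromosome 19, 10596801 to 10614234, minus strand) had 108 and 133 CPM, against 104 and 97.6 CPM (0.26 ± 0.12, edgeR adjusted p = 0.28). The rises of HMOX1, TXNRD1 and SRXN1 in ERβ5 against ERβ1 passed under all 16 alternative settings tried.

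The comparison with the knockout cells asks how the libraries labelled with an isoform differ from those labelled ERβ-KO. Against the libraries labelled ERβ-KO, counts differed in direction with the isoform: 4 of 9 genes rose and 1 fell with ERβ5, while 0 rose and 4 fell with ERβ1. Of all genes tested, 14.7% rose and 13.5% fell in ERβ5 against ERβ-KO (28.2% either way), and 12.4% rose and 12.5% fell in ERβ1 against ERβ-KO (24.9% either way). The knockout libraries are common to these comparisons, so their values are given side by side and not as independent evidence. The median log2 fold change of the 9 genes was 0.36 with ERβ5 and -0.26 with ERβ1, beside 0.0084 and -8.2e-05 over all genes tested.

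HMOX1 rose by 1.62 ± 0.27 on the log2 scale in the libraries labelled ERβ5 (edgeR adjusted p = 0.00446) and fell in those labelled ERβ1 (-1.496 ± 0.28, edgeR adjusted p = 0.00523), against 68 and 99.6 CPM in the libraries labelled ERβ-KO. TXNRD1 rose by 0.55 ± 0.11 with ERβ5 (0.00611) and fell with ERβ1 (-0.45 ± 0.11, edgeR adjusted p = 0.0142), against 216 and 208 CPM in ERβ-KO. SRXN1 rose with ERβ5 (0.60 ± 0.12, edgeR adjusted p = 0.00568), against 103 and 113 CPM in ERβ-KO, and its difference with ERβ1 of -0.24 ± 0.12 did not pass (edgeR adjusted p = 0.152). NQO1 rose with ERβ5 (0.41 ± 0.11, edgeR adjusted p = 0.0204), against 1294 and 1243 CPM in ERβ-KO, and was at 0.04 ± 0.11 with ERβ1 (edgeR adjusted p = 0.826). GCLM fell with ERβ1 (-0.62 ± 0.14, edgeR adjusted p = 0.00848), against 21.4 and 23 CPM in ERβ-KO, and overlapped ERβ-KO with ERβ5 (0.09 ± 0.14, edgeR adjusted p = 0.63). GCLC, at 108 and 124 CPM in ERβ-KO, passed with neither isoform (edgeR adjusted p = 0.259 with ERβ5 and 0.0966 with ERβ1), nor did TXN, at 85.8 and 89 CPM (0.0922 and 0.985).

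NFE2L2 went the same way with both isoforms: it fell by 0.34 ± 0.10 with ERβ5 and by 0.42 ± 0.10 with ERβ1 (edgeR adjusted p = 0.0222 and 0.0096), against 121 and 120 CPM in the libraries labelled ERβ-KO. In the main fit HMOX1, TXNRD1, SRXN1 and NQO1 rose in ERβ5 against ERβ-KO while the NFE2L2 transcript fell. With the GC and length trend removed, that fall was -0.13 and did not pass (edgeR adjusted p = 0.166). Against control, NFE2L2 in ERβ5 differed by -0.02 ± 0.10 (edgeR adjusted p = 0.9). A link between the NFE2L2 transcript and these rises was not tested. KEAP1, which marks NRF2 for breakdown, had 88 and 103 CPM in ERβ-KO and was higher by 0.34 ± 0.12 with ERβ5 without passing (edgeR adjusted p = 0.053), while with ERβ1 it differed by 0.08 ± 0.12 (0.643).

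In the libraries labelled ERβ-KO, levels also moved with the GC content of the transcript, with r = -0.566 and -0.464 between transcript GC content and the log2 deviation from the mean of all libraries, against -0.136 to 0.356 in the other 6 libraries. Of the 9 transcripts TXN and GCLM had the lowest GC content, 36.8 and 37.3%, and KEAP1 the highest, 60.2%. With each library's trend with GC content and length removed, the differences of GCLM, GCLC and TXN in ERβ5 against ERβ-KO were 0.51, 0.33 and 0.70 and passed (edgeR adjusted p = 0.0344, 0.0478 and 0.0183), the fall of NFE2L2 was -0.13 and did not (0.166), and the difference of KEAP1 was 0.03. In ERβ1 against ERβ-KO the same correction left -0.31 for GCLM and -0.31 for TXNRD1, neither of which passed (0.149 and 0.0729), and SRXN1 passed (-0.32, edgeR adjusted p = 0.046). Without ERβ1 1, none of the 4 falls with ERβ1 passed (edgeR adjusted p = 0.0732 to 0.0933), and without ERβ-KO 1 those of NFE2L2 and TXNRD1 did not (0.0508 and 0.072). With ERβ5, NQO1 lost its call without ERβ-KO 1, ERβ-KO 2 or ERβ5 2 (0.0597, 0.0885 and 0.139) and NFE2L2 without any 1 of control 1, control 2, ERβ-KO 1, ERβ-KO 2 and ERβ5 2 (0.0529 to 0.087). In a fit of these groups only, HMOX1 and NQO1 did not pass (0.0505 and 0.0768). KEAP1 passed without ERβ5 1 (0.0105), with no filter on low counts (0.0231), with a filter of 1 CPM in 2 libraries (0.0487) and in DESeq2 (0.0387), and TXN passed without ERβ5 1 (0.00329) and with no filter (0.0177), while without ERβ5 2 the log2 differences of TXN and GCLM were 0.060 and -0.073 and that of HMOX1 was 1.08.

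**Figure D2:**
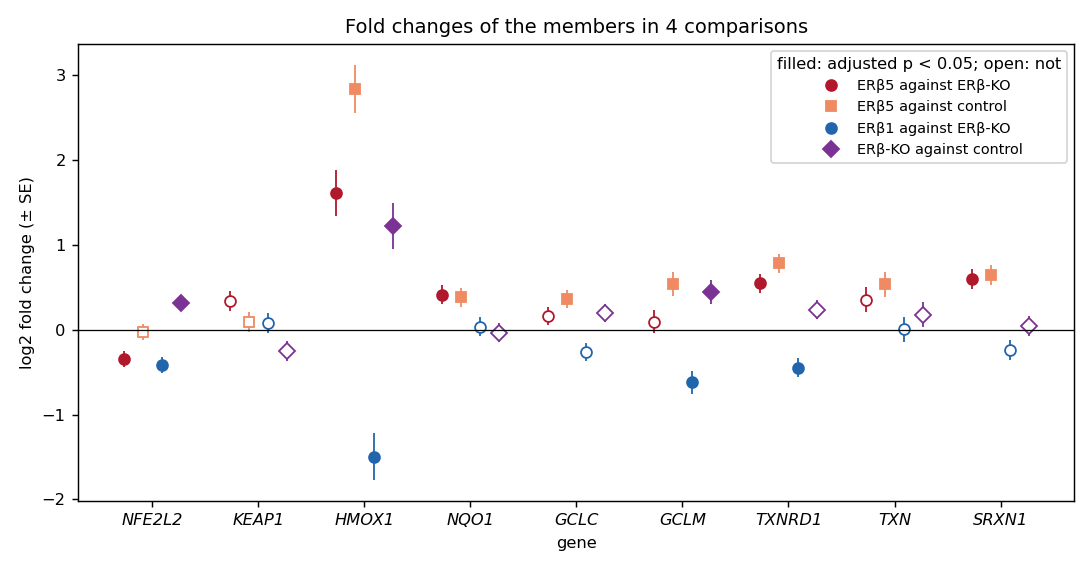
Log2 fold change (vertical axis, with SE) of the 9 genes in 4 comparisons, as filled symbols where the adjusted p was under 0.05 and open symbols where it was not. HMOX1, TXNRD1 and SRXN1 lie at 1.62, 0.55 and 0.60 in ERβ5 against ERβ-KO and at -1.496, -0.45 and -0.24 in ERβ1 against ERβ-KO, while NFE2L2 lies at -0.34 and -0.42.

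The knockout comparison sets the libraries labelled ERβ-KO against control. ESR2 reads were about as many in both, which does not test the knockout. In the libraries labelled ERβ-KO, 3 of the 9 genes rose and 0 fell against control, where 8.98% of all genes tested rose and 8.52% fell (17.5% either way). HMOX1 had 68 and 99.6 CPM in ERβ-KO, against 34.8 and 36.9 CPM in control (log2 fold change 1.22 ± 0.27, edgeR adjusted p = 0.0186). GCLM had 21.4 and 23 CPM, against 16 and 16.6 CPM (0.44 ± 0.14, edgeR adjusted p = 0.0463), and NFE2L2 had 121 and 120 CPM, against 96.6 and 97 CPM (0.32 ± 0.10, edgeR adjusted p = 0.0404). For each of these genes both ERβ-KO libraries were above both control libraries. That was so as well for TXNRD1, GCLC and TXN, which did not pass, while for KEAP1 both were below. TXNRD1 (0.23 ± 0.11), GCLC (0.20 ± 0.11), TXN (0.18 ± 0.15), SRXN1 (0.04 ± 0.12), NQO1 (-0.03 ± 0.11) and KEAP1 (-0.25 ± 0.12) did not pass (edgeR adjusted p = 0.155 to 0.859).

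With the GC and length trend removed, the differences of GCLM and NFE2L2 in ERβ-KO against control were 0.085 and 0.16 and did not pass (edgeR adjusted p = 0.745 and 0.11), that of KEAP1 was -0.00025, and that of HMOX1 was 1.45 and passed (0.0231). GCLM and NFE2L2 lost their calls without control 1 (0.219 and 0.211), control 2 (0.207 and 0.239), ERβ-KO 1 (0.126 and 0.162) or ERβ-KO 2 (0.16 and 0.108), and HMOX1 without control 1, control 2 or ERβ-KO 2 (0.13, 0.138 and 0.0888). GCLM also missed the threshold with relative log expression factors (0.0502), and TXNRD1 passed when ERβ-KO and control alone were fitted (0.0383).

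Set against control, the isoform libraries show where the pathway stood relative to unmodified cells. In the libraries labelled ERβ5, 7 of 9 genes rose and 0 fell, where 6.85% of all genes tested rose and 6.31% fell (13.2% either way), and these were the 9 without the regulators NFE2L2 and KEAP1. HMOX1 was higher by 2.84 ± 0.28 on the log2 scale (edgeR adjusted p = 0.000364), TXNRD1 by 0.78 ± 0.11 (edgeR adjusted p = 0.000949) and SRXN1 by 0.64 ± 0.12 (0.00454), against 104 and 106 CPM of SRXN1 and 179 and 182 CPM of TXNRD1 in control. GCLM, TXN, NQO1 and GCLC rose by 0.54 ± 0.14, 0.53 ± 0.15, 0.38 ± 0.11 and 0.37 ± 0.11 (edgeR adjusted p = 0.0255, 0.0365, 0.0459 and 0.0442). TXN had 72.9 and 81.6 CPM in control, NQO1 1217 and 1378 CPM and GCLC 99.8 and 103 CPM. KEAP1, at 114 and 112 CPM in control, and NFE2L2 did not pass (0.668 and 0.9). For both, the ERβ5 and control libraries overlapped.

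Without ERβ5 2, GCLM, GCLC, NQO1 and TXN did not pass (edgeR adjusted p = 0.169, 0.197, 0.257 and 0.28, with TXN at 0.24), nor did they without control 1 (0.195, 0.288, 0.395 and 0.265) or control 2 (0.125, 0.188, 0.111 and 0.0955). SRXN1 missed the threshold without control 1 (0.0541), and NQO1 and TXN also in a fit of these groups only (0.0843 and 0.0811) and without any 1 library of ERβ-KO or ERβ1 (0.0502 to 0.0652). In the libraries labelled ERβ1, 0 of 9 genes passed against control in edgeR or DESeq2. In edgeR, 0 of the 9 had an unadjusted p under 0.05, as 2699 of all 13915 genes tested did. The log2 fold changes of the 9 ran from -0.27 for HMOX1 to 0.18 for TXN, with SEs of 0.10 to 0.27. Of all genes tested, 1.36% rose and 2.7% fell in ERβ1 against control (4.06% either way).

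The order of the groups differed between genes. For HMOX1 and TXNRD1 it was ERβ5, ERβ-KO, control, ERβ1 from high to low. HMOX1 averaged 257 ± 111, 83.8 ± 22.4, 35.9 ± 1.52 and 29.6 ± 2.63 CPM (SD, n = 2 each) in that order, and of the neighbours control and ERβ1 did not differ beyond the test. TXNRD1 averaged 310 ± 48.1, 212 ± 5.8, 180 ± 2.16 and 156 ± 3.78 CPM (SD, n = 2 each), and neither ERβ-KO and control nor control and ERβ1 passed. GCLM, GCLC and SRXN1 had the same order. NFE2L2 had its own, ERβ-KO, control, ERβ5, ERβ1, and the last 3 groups did not differ beyond the test. Within a group the SD was 43.2% of the mean for HMOX1 and 25.6% for TXN in the libraries labelled ERβ5, and the second of these libraries was the higher for 8 of the 9 genes, all except NFE2L2.

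By the root mean square difference of log2 CPM centred over the 8 libraries, the genes most like HMOX1 among 9442 genes averaging at least 10 CPM were CP (0.28), ISG20 (0.31) and TMEM140 (0.32). CP, the plasma copper oxidase ceruloplasmin, had 17.2 and 35.6 CPM in the libraries labelled ERβ5, against 2.03 and 2.95 CPM in those labelled ERβ1. The gene most like TXNRD1 was SRXN1 itself (0.10), followed by ZFYVE26 (0.10) and SCPEP1 (0.11).

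Related redox genes were taken as 86 further genes in 7 lists, of which 77 were tested. Of the other 9, GPX1, GPX2, GSTP1, GSTM1, GSTM2, SOD3, AKR1B10, ALDH3A1 and UGT1A6, none had more than 11 reads in a library. In ERβ5 against ERβ1, 11 of 77 rose and 0 fell, with a median log2 fold change of 0.13, where 3.49% of all genes tested rose and 1.18% fell. By list, the genes that rose there were 4 of 11 for NRF2 partners and turnover, 5 of 17 for detoxification and export, 1 of 13 for peroxiredoxins and thioredoxin partners, 1 of 4 for superoxide and peroxide removal, 0 of 18 for glutathione supply and use, 0 of 7 for NADPH supply and 0 of 7 for heme breakdown and ferritin. In the last 3 lists 4, 2 and 2 genes had an unadjusted edgeR p under 0.05, as did 2539 of all 13915 genes tested. Differences between lists were not tested. In ERβ5 against ERβ-KO, 23 of 77 rose and 6 fell (median 0.16), beside 14.7% and 13.5% of all genes tested. In ERβ1 against ERβ-KO, 11 rose and 15 fell (median -0.047), beside 12.4% and 12.5%. With the GC and length trend removed, 20 related genes were called with ERβ5 and 32 with ERβ1 against ERβ-KO, where the main fit called 29 and 26. Of all genes tested, 2511 and 3333 were then called. Corrected values of single related genes are not given here. In ERβ-KO against control, 8 rose and 8 fell (median -0.036), beside 8.98% and 8.52%, which is near the share over all genes. Against control, 14 rose and 6 fell with ERβ5, beside 6.85% and 6.31%, and 3 rose and 6 fell with ERβ1, beside 1.36% and 2.7%.

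**Figure D3:**
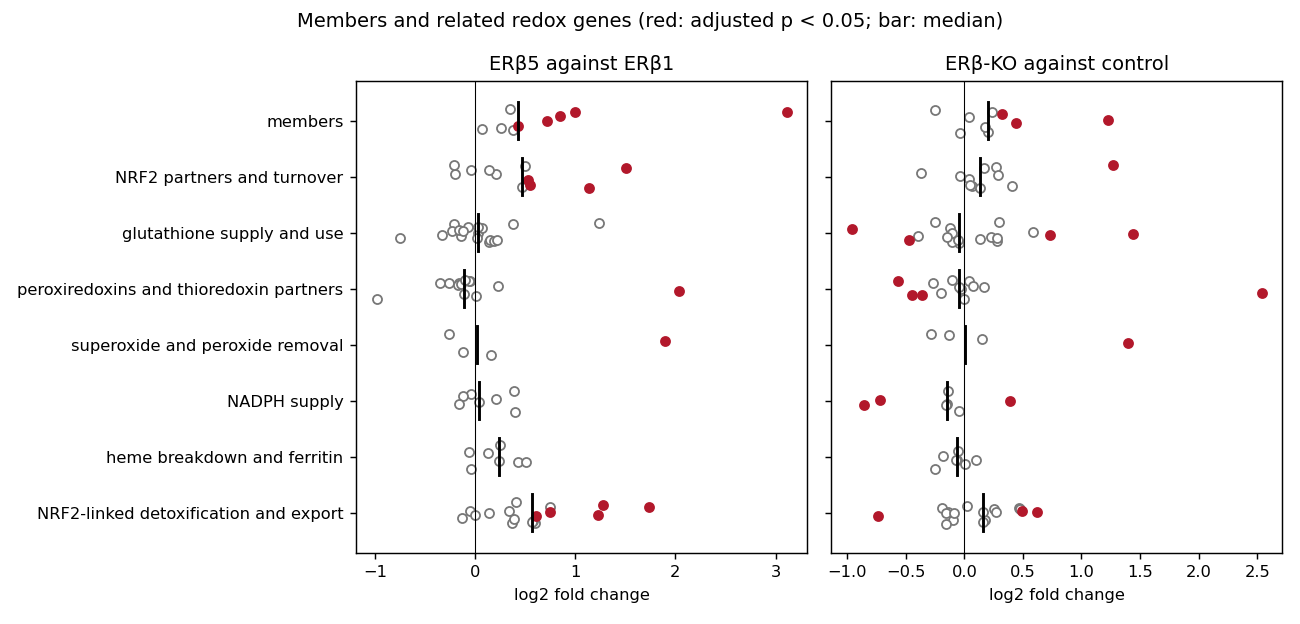
Log2 fold changes (horizontal axes) of the 9 genes and of 7 lists of related redox genes in ERβ5 against ERβ1 (left) and ERβ-KO against control (right), with a point per gene, red where the adjusted p was under 0.05, and a bar at the list's median. The red points at left all lie above 0, with HMOX1 at 3.11, while at right the lists hold red points on both sides.

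Among the partners of NRF2, the small MAF gene MAFF had 9.08 and 13.5 CPM in the libraries labelled ERβ5, against 4.09 and 3.82 CPM in those labelled ERβ1 (log2 fold change 1.51 ± 0.20, edgeR adjusted p = 0.00164), rose in ERβ5 against control (1.03 ± 0.20, 0.00539) and fell in ERβ1 against ERβ-KO (-0.88 ± 0.21, edgeR adjusted p = 0.0101). MAFG, another small MAF gene, rose by 0.55 ± 0.11 in ERβ5 against ERβ1 (edgeR adjusted p = 0.0119). MAFG fell in ERβ1 against ERβ-KO (-0.75 ± 0.11, edgeR adjusted p = 0.000663) and against control (-0.71 ± 0.11, edgeR adjusted p = 0.00315), and was lower in the libraries labelled ERβ1 than in all others, with 28.1 and 27.5 CPM. SQSTM1 encodes p62, which draws KEAP1 into autophagy. It had 3323 and 5296 CPM in ERβ5, against 1947 and 1975 CPM in ERβ1 (1.14 ± 0.19, edgeR adjusted p = 0.0057), and rose in ERβ5 against ERβ-KO as well (0.65 ± 0.18, edgeR adjusted p = 0.0252). The related factor NFE2L1 was the remaining gene of this list that rose in ERβ5 against ERβ1 (0.52 ± 0.10), and is named after its value was seen. BACH1, the repressor that competes with NRF2 for its elements, did not pass in ERβ5 against ERβ1 (0.21 ± 0.13, edgeR adjusted p = 0.421) and fell in ERβ1 against ERβ-KO (-0.44 ± 0.13, edgeR adjusted p = 0.0271).

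OSGIN1, an oxidative stress-induced growth inhibitor, led the detoxification list with 68.1 and 117 CPM in the libraries labelled ERβ5, against 29.3 and 26.5 CPM in those labelled ERβ1 (log2 fold change 1.73 ± 0.21, edgeR adjusted p = 0.00147), and it also rose in ERβ5 against ERβ-KO (1.28 ± 0.21, edgeR adjusted p = 0.0033). The other rises of that list, named after their values were seen, were those of the carbonyl reductase CBR3 (1.27 ± 0.20, with -0.82 ± 0.20 in ERβ1 against ERβ-KO, edgeR adjusted p = 0.013), TRIM16L (1.22 ± 0.19), TRIM16 (0.74 ± 0.13) and ABHD4 (0.61 ± 0.15). TRIM16 and TRIM16L resemble each other, so reads may be split between them. SOD2, the mitochondrial superoxide dismutase, had 144 and 256 CPM in ERβ5, against 49.9 and 57.3 CPM in ERβ1 (1.90 ± 0.22, edgeR adjusted p = 0.0015). It rose in ERβ5 against ERβ-KO (0.72 ± 0.22, edgeR adjusted p = 0.0357), fell in ERβ1 against ERβ-KO (-1.18 ± 0.22, edgeR adjusted p = 0.00494) and rose in ERβ-KO against control (1.40 ± 0.22, edgeR adjusted p = 0.00475). TXNIP, which binds and inhibits thioredoxin, had 46.3 and 72.2 CPM in ERβ5 and 13.6 and 15.1 CPM in ERβ1, against 34.3 and 20.1 CPM in ERβ-KO and 4.43 and 4.97 CPM in control. It passed in all 6 comparisons, with a rise of 3.66 ± 0.29 in ERβ5 against control (edgeR adjusted p = 7.3e-05) and a fall in ERβ1 against ERβ-KO (-0.93 ± 0.26, edgeR adjusted p = 0.0292).

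SLC7A11, the cystine carrier that feeds glutathione synthesis, had 127 and 131 CPM in the libraries labelled ERβ5 and 82.8 and 116 CPM in those labelled ERβ1, against 258 and 256 CPM in ERβ-KO and 98.3 and 91.6 CPM in control. It fell with ERβ5 as with ERβ1 against ERβ-KO (-0.99 ± 0.14 and -1.37 ± 0.14, edgeR adjusted p = 0.000945 and 5.74e-05), and rose by 1.44 ± 0.14 in ERβ-KO against control (0.000221). SLC3A2, its heavy chain partner, was highest in control, with 1148 and 1048 CPM, and fell with ERβ5 and with ERβ1 against control (-0.82 ± 0.15 and -0.68 ± 0.15, edgeR adjusted p = 0.00398 and 0.0255). TKT, a pentose phosphate enzyme of the NADPH list, fell against control in ERβ5, ERβ1 and ERβ-KO (-0.69 ± 0.11, -0.65 ± 0.11 and -0.85 ± 0.11, edgeR adjusted p = 0.00195, 0.00769 and 0.00114). PGLS, of the same pathway, rose in ERβ1 against ERβ-KO (0.47 ± 0.14, edgeR adjusted p = 0.0329). EPHX1, an epoxide hydrolase, fell against control in ERβ5, ERβ1 and ERβ-KO (-0.51 ± 0.12, -0.50 ± 0.12 and -0.73 ± 0.12, edgeR adjusted p = 0.015, 0.0349 and 0.00318). HMOX2, the constitutive heme oxygenase, rose by 0.41 ± 0.11 in ERβ5 against ERβ-KO (edgeR adjusted p = 0.017). GLRX, glutaredoxin, rose by 1.07 ± 0.32 there (edgeR adjusted p = 0.0337) and by 1.66 ± 0.32 in ERβ5 against control (edgeR adjusted p = 0.00982). The ERβ5 libraries lay far apart for GLRX, at 16.5 and 38.4 CPM, against 13.2 and 12.7 CPM in ERβ-KO and 7.81 and 9.53 CPM in control.

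**Figure D4:**
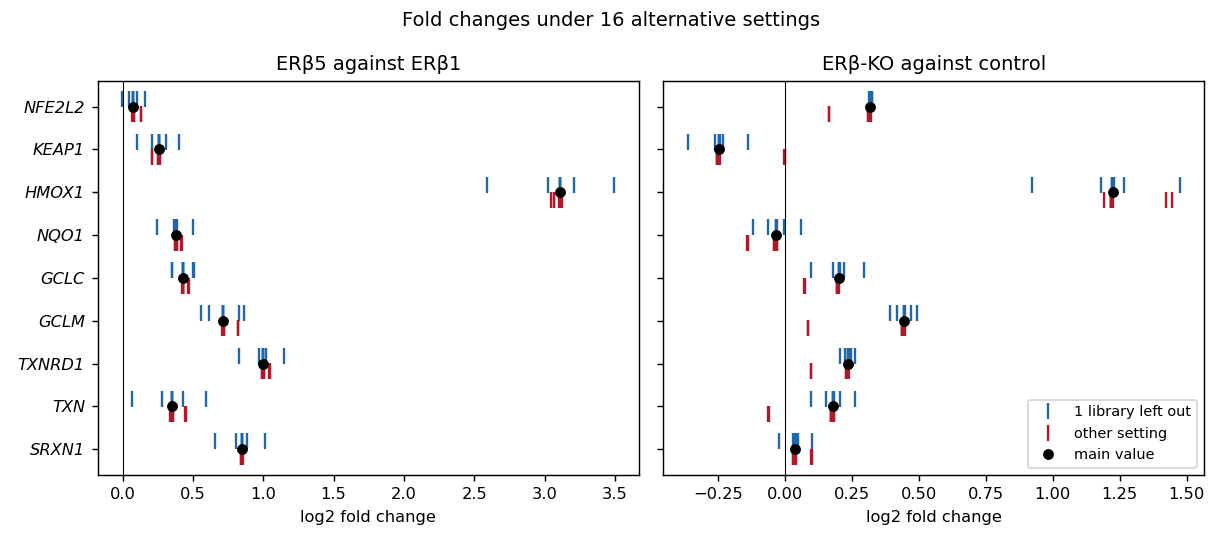
Log2 fold change (horizontal axes) of the 9 genes in ERβ5 against ERβ1 (left) and ERβ-KO against control (right), with a black point for the value reported, blue ticks for fits that leave out 1 library and red ticks for the other settings. At left HMOX1 stays between 2.59 and 3.497 and TXNRD1 between 0.83 and 1.15, while at right GCLM ranges from 0.085 to 0.49.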

How the data were processed

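The authors deposited 1 file per library with whole-number read counts for each gene and no normalisation. Per the labels' protocols, reads were single-end with 50 bases. The submitters' processing notes name bcl2fastq, TopHat2 2.0.8b, HTSeq and the build hg19. The sources used here give no HTSeq version, strand setting or annotation, so an overlapping antisense gene cannot be separated from its partner. The 5 closing entries that name no gene stayed out of library sizes and tests. They held 34.7 to 39.9% of reads without a single place, 7.01 to 7.79% in no gene and 0.54 to 0.561% ambiguous, and genes with near-identical copies or pseudogenes (TXN, FTH1, FTL, PRDX1, GSTM genes) have uncertain levels.

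Genes were filtered with filterByExpr (minimum count 10, minimum total 15), scaled with TMM and analysed in R 4.3.3 by the robust quasi-likelihood F test of edgeR 4.0.16, with all 8 libraries in 1 fit (common biological coefficient of variation 0.102). P-values were adjusted by Benjamini-Hochberg over the 13915 genes tested, and each SE is the size of the log2 fold change over the root of its F. On simulated counts for ERβ-KO against control over 13915 genes, 93% of 2-fold and 49% of 1.5-fold changes were called. The simulation changed far fewer genes than were called in the data and gave every gene the same dispersion. Its shares may therefore differ from those in the data. Replicates differed by more than sampling noise (chi-square per degree of freedom 7.84 to 43.39). Gene positions, GC content and lengths come from a GENCODE annotation on GRCh37, the build of hg19, and promoter windows from RefSeq on GRCh38.p14; the builds are not mixed.

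The 9 genes, the related lists and the tests were chosen with earlier results of these data known. All 9 genes are named in every comparison. Of the related lists, the gene named per list and comparison is the called gene with the largest change among genes whose higher group averages 5 CPM or more and whose libraries do not overlap, and SLC7A11, SLC3A2, SQSTM1, BACH1, MAFG and TXNIP are named throughout. 1 gene that this rule names is not reported here. The genes most like HMOX1 and TXNRD1, the 2 members with the widest range of group means, were found on log2(CPM + 0.5). Alternatives were relative log expression factors, other filters, DESeq2 1.42.0, a fit of the groups compared only, the replicate number as a block, removal of lowess trends with GC content and length (94.3% of genes had a value), and leaving out each library in turn, where the lone remaining library is assumed to vary as the other groups do.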

Additional observations from a re-analysis of the deposited data

Results flagged for a closer look

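For 5 of the 9 genes, the difference from the shared ERβ-KO libraries was not the same in the libraries labelled ERβ5 as in those labelled ERβ1. This rests on the test of ERβ5 against ERβ1 itself, which called 4.66% of all genes tested. The difference, ERβ5 minus ERβ1 on the log2 scale, was 3.11 for HMOX1, 1.00 for TXNRD1, 0.85 for SRXN1, 0.71 for GCLM and 0.43 for GCLC. GCLM and GCLC lost their calls in some of the alternative settings, as given above. ESR2 reads do not separate the groups as named, so these are differences between libraries labelled so.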

How the results depend on the processing

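Counts of called genes moved with the libraries and settings used. Over 8 fits that each left out 1 library, the calls among the 9 genes ran from 0 to 3 in ERβ-KO against control, 0 to 4 in ERβ1 against ERβ-KO, 3 to 7 in ERβ5 against ERβ-KO, 3 to 7 in ERβ5 against ERβ1 and 2 to 7 in ERβ5 against control. Among the related genes they ran from 3 to 21, 10 to 32, 8 to 38, 2 to 21 and 10 to 27 in that order, and from 1 to 15 in ERβ1 against control. Over all genes they ran from 247 to 3267, 1208 to 4203, 1689 to 4389, 131 to 1393 and 591 to 2134, and from 130 to 992 in ERβ1 against control. In a fit of the groups compared only, 3 of the 9 genes and 2786 of the 13915 genes tested passed in ERβ5 against ERβ-KO. The related genes called in such fits were 25 in ERβ-KO against control, 14 in ERβ5 against ERβ-KO and 17 in ERβ1 against control. Of all genes, 4349 and 1112 then passed in ERβ-KO and in ERβ1 against control. With the GC and length trend removed, without and with the replicate block, 1 of the 9 genes passed in ERβ-KO against control, beside 1654 and 1785 of the 13915 genes tested. The related genes called were then 22 and 22 in ERβ5 against ERβ1, 15 and 17 in ERβ1 against control and 35 and 34 in ERβ5 against control, and all genes called 1161 and 1289, 1368 and 1494, and 3056 and 3196. All genes called in ERβ5 against ERβ-KO were 2511 without the block. With no filter on low counts, 23 and 17 related genes and 1375 and 1384 of all genes passed in ERβ5 against ERβ1 and in ERβ1 against control. DESeq2 called 853 genes in ERβ1 against control. The cause was not tested.

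Of 864 refits of single genes, 749 kept direction and call, 70 lost and 22 gained a call, and 23 changed sign, none of a called value. With the GC and length trend removed, without and with the replicate block, these were NFE2L2 in ERβ5 against control (0.035 and 0.035), KEAP1 in ERβ1 against ERβ-KO (-0.17 and -0.17) and TXN in ERβ-KO against control (-0.064 and -0.060). NQO1 in ERβ1 against control was -0.00085 with relative log expression factors and with DESeq2, and TXN in ERβ1 against ERβ-KO was -0.00077 with the replicate block and -0.0087 with these groups only. Over the fits without 1 library the ranges that crossed 0 were -0.0035 to 0.16 for NFE2L2 in ERβ5 against ERβ1, -0.028 to 0.20 for KEAP1 in ERβ1 against ERβ-KO, -0.069 to 0.24 for KEAP1 in ERβ5 against control, -0.12 to 0.060 and -0.082 to 0.097 for NQO1 in ERβ-KO and ERβ1 against control, -0.14 to 0.015 for GCLC in ERβ1 against control, -0.073 to 0.24 for GCLM in ERβ5 against ERβ-KO, -0.070 to 0.075 for TXN in ERβ1 against ERβ-KO and -0.023 to 0.10 for SRXN1 in ERβ-KO against control.

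Fitting the replicate number as a block, 3, 4, 6, 5, 0 and 7 of the 9 genes passed in ERβ-KO against control, ERβ1 and ERβ5 against ERβ-KO, ERβ5 against ERβ1, and ERβ1 and ERβ5 against control. Of the 13915 genes tested, 2532, 3519, 3929, 652, 581 and 1850 passed in that order. KEAP1 in ERβ5 against ERβ-KO was the call gained among the 9 genes (0.34, edgeR adjusted p = 0.0493). The difference between libraries 1 and 2 of a group, taken over genes, correlated between groups at r = -0.12 to 0.139, with both signs. With 1 such difference per group, these values cannot settle whether libraries of the same number share a preparation, and the labels give only the number. With 2 libraries a group, a difference of 1.5-fold was often missed on simulated counts, so a gene that did not pass is not shown to be unchanged.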
